A study of Drosophila melanogaster with 4 samples.

Results

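The genes that encode the proteins of the cytosolic ribosome were taken from Ensembl as the protein-coding genes whose symbol starts with RpL, RpS or RpLP and a digit, without those of chromosome 4. This gave 91 of the 13986 protein-coding genes, and RefSeq names the same 91. RpS3A lies on chromosome 4 and was left out by this rule. Symbols that end in -like were taken too, although not all of these genes need encode a protein of the ribosome itself. A gene was said to have an HDAC3 peak when the edge of a peak lay within 500 bp of one of its transcription start sites (TSSs). The members are referred to as RP genes.

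HDAC3 is the histone deacetylase of a corepressor complex that contains SMRTER and Ebi. Occupancy was mapped by CUT&Tag, in which an antibody directs a transposase to the chromatin around the protein, in embryos 2-4 h after egg laying. In the second round, the rat antibody against HDAC3 was used on HDAC3 shRNA embryos (genotype tub-GAL4/shRNA HDAC3) and on embryos of the laboratory strain w1118. In the first round, w1118 embryos were profiled with the rat antibody and with a rabbit antibody. The shRNA was expressed from the TRiP.HMS00087 insertion by the matalpha4-GAL-VP16 driver, which acts in the female germline, so the knockdown is maternal. The w1118 embryos carry neither the driver nor the shRNA, and an effect of the driver or the strain cannot be told apart from that of the knockdown. Each library was made from nuclei of many pooled whole embryos, so the cell types of the embryo are mixed.

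The labels call both second-round libraries a second replicate, and w1118 with the rat antibody is the 1 combination profiled in both rounds. Its lists differ in length, were kept apart and are set side by side below. No library was repeated within a round, so no difference between antibodies or genotypes has a replicate check, and no test was made. The lists hold 102 peaks for HDAC3 shRNA embryos, 1142 for second-round w1118 embryos, 6258 for first-round w1118 embryos with the rat antibody and 3645 with the rabbit antibody. The lists give no read numbers, and the depth is unknown. The number of genes with a peak follows the length of a list, and counts of RP genes are therefore set beside the share of all protein-coding genes with a peak in the same list. Fold enrichment is the ratio of the signal in a peak to its background and was ranked within a list only.

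RP genes are among the most strongly and evenly transcribed genes of growing cells, and the loss of 1 copy of many of them gives the Minute phenotype of slow growth and short bristles in flies. Their transcription often starts at a TCT initiator, a pyrimidine-rich element at the TSS that is specific to translation genes and works with the TBP-related factor Trf2. Other elements common at fly housekeeping promoters are the DRE, bound by DREF, and Motif 1, bound by M1BP. Several RP genes carry small nucleolar RNA (snoRNA) genes in their introns.

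Promoter sequences of 6 RP genes are shown because they cover the kinds of promoter met below: 3 with a peak of both antibodies at the TSS (RpS13, RpL6, RpS20), RpL3 with peaks of the antibodies centred on opposite sides of its TSS, RpL21 with the strongest peak found by the rabbit antibody alone, and RpS6 with no peak. They run from 130 bases before to 30 bases from the TSS of the canonical transcript, 5′ to 3′ on the coding strand, and come from the RefSeq copy of Release 6 (dm6). Capitals mark a DRE (TATCGATA) in RpS13 and RpS6, Motif 1 (GGTCACAC) in RpL6, and the TCT initiator in RpL3, RpL21 and RpS6. RpL6 also held a DRE further upstream than the bases shown, and RpS20 held none of the 3 motifs. The positions are chr2L:8364633-8364792 on the minus strand for RpS13, chr3R:31596175-31596334 on the minus strand for RpL6, chr3R:20822051-20822210 on the plus strand for RpS20, chr3R:11221764-11221923 on the plus strand for RpL3, chr2L:22247804-22247963 on the minus strand for RpL21 and chrX:7901302-7901461 on the minus strand for RpS6.
RpS13: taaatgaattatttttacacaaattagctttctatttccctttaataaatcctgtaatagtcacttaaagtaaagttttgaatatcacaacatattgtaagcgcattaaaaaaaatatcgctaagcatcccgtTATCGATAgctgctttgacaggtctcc
RpL6: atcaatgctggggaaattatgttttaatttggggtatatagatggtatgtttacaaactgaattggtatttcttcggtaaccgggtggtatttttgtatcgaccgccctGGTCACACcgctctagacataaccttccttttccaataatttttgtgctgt
RpS20: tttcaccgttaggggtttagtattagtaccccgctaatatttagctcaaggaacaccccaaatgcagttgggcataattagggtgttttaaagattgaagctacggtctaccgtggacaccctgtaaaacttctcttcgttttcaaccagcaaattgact
RpL3: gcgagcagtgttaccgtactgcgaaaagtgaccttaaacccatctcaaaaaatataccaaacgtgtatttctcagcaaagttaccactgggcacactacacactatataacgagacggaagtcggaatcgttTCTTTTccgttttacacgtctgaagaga
RpL21: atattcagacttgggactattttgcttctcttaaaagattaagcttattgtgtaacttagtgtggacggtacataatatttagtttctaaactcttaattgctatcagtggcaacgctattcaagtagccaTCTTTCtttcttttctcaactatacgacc
RpS6: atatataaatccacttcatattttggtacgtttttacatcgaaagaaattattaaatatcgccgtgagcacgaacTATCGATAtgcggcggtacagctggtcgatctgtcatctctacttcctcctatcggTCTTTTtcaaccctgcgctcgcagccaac

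The share of RP genes with a peak was below that of all protein-coding genes with the rat antibody and above it with the rabbit antibody. With the rat antibody in the first round, 16 RP genes (17.6%) had a peak, against 24.9% of all protein-coding genes. With the rabbit antibody, 33 RP genes (36.3%) had one, against 22.9% of all protein-coding genes. Both antibodies gave a peak at 14 RP genes (15.4%), close to the 16.3% of all protein-coding genes. The rabbit antibody without the rat antibody gave a peak at 19 RP genes (20.9%), against 6.64% of all protein-coding genes, a share 3.15 times as high. The reverse, a rat peak without a rabbit peak, was seen at 2 RP genes (2.2%), RpL23A and RpLP0-like, against 8.6% of all protein-coding genes. The 56 RP genes (61.5%) with no w1118 peak of either round compare with 68.3% of all protein-coding genes.

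**Figure D1:**
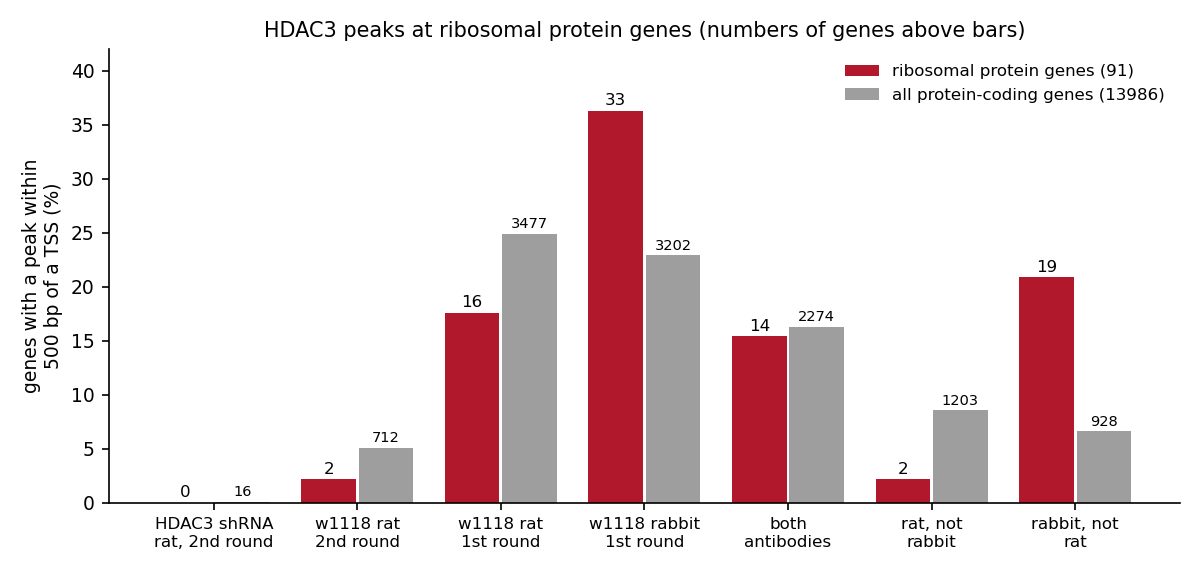
Share of genes with an HDAC3 peak within 500 bp of a TSS (y axis, %) in each of the 4 lists and for first-round peaks of both antibodies or of 1 antibody (x axis), for the 91 RP genes (red) and all 13986 protein-coding genes (grey), with the number of genes above each bar. RP genes stand below all genes in the rat lists, with 16 genes in the first round, and above them in the rabbit list, with 33 genes.

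The antibodies also differed in how their RP genes overlapped. Of the RP genes with a rat peak, 87.5% also had a rabbit peak, against 65.4% of all protein-coding genes with a rat peak. Of the RP genes with a rabbit peak, 42.4% also had a rat peak, against 71% of all protein-coding genes with a rabbit peak. Counts and shares also moved with the length of the lists. Cut to the 3645 peaks of highest fold enrichment, the length of the rabbit list, the rat list held 10 RP genes (11%), against 15.7% of all protein-coding genes. With each list cut to its 1142 strongest peaks, 3 RP genes (3.3%) had a rat peak, against 5.13% of all protein-coding genes, and 7 (7.69%) had a rabbit peak, against 7.21%, so the rabbit share was then close to that of all genes.

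The share found by the rat antibody depended on the distance allowed. Within 1000 bp of a TSS, 28 RP genes (30.8%) had a rat peak, against 28.7% of all protein-coding genes, and within 3000 bp 49 RP genes (53.8%) did, against 42.2%. RP genes lie close to other genes: a median of 2 other protein-coding genes had a TSS within 3000 bp of theirs, against 1 for all protein-coding genes. Of the 33 RP genes whose nearest rat peak lay beyond 500 bp and within 3000 bp, 25 (75.8%) had that peak within 500 bp of the TSS of another protein-coding gene that was nearer, against 59.8% of all protein-coding genes at these distances. With the rabbit antibody this held for 18 of 20 (90%), against 75.5%. The rabbit share of RP genes stayed above that of all protein-coding genes at each distance computed, at 23.1% against 15.2% for peaks that cover a TSS and at 58.2% against 35.7% within 3000 bp.

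**Figure D2:**
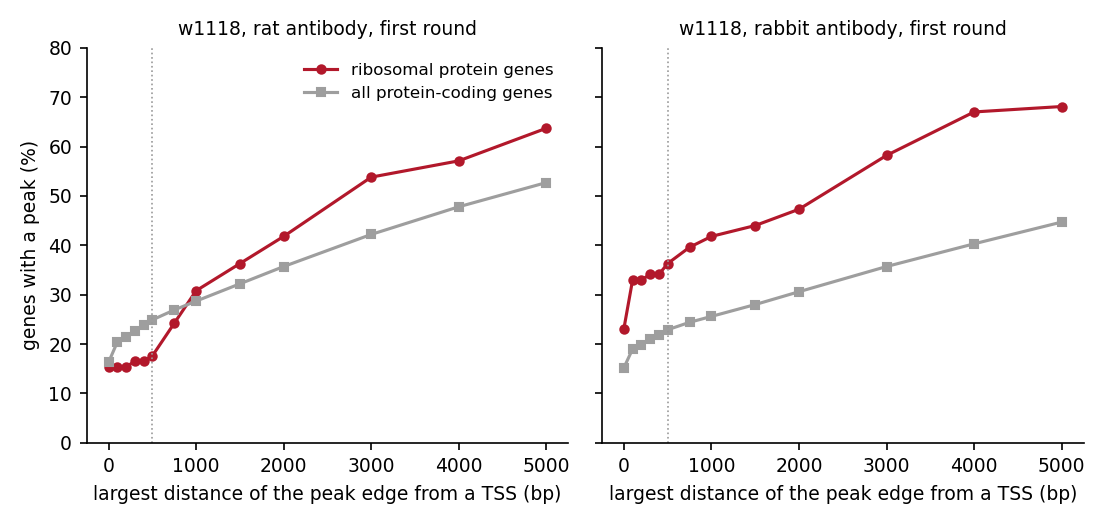
Share of genes with a peak (y axis, %) against the largest distance allowed between peak edge and TSS (x axis, bp), for RP genes (red circles) and all protein-coding genes (grey squares), with the rat antibody (left) and the rabbit antibody (right) in first-round w1118 embryos. The dotted line is the 500 bp used for counts. The rat curves cross between 750 and 1000 bp, while the rabbit curve of RP genes stays above that of all genes.

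The 14 RP genes with a peak of both antibodies came from both subunits, 7 from the small and 6 from the large, with RpLP0 besides. They made up 18.9% of small-subunit and 12% of large-subunit genes, against 16.3% of all protein-coding genes. Of 37 small-subunit genes, 7 (18.9%) had a rat peak and 17 (45.9%) a rabbit peak. Of 50 large-subunit genes, 7 (14%) had a rat peak and 14 (28%) a rabbit peak. RpLP0, RpLP1, RpLP2 and RpLP0-like make up the last group of 4, in which 2 had a rat peak and 2 a rabbit peak. Among the 14 genes found by both antibodies were RpL3, RpL6, RpL13A, RpL24-like, RpL41, RpLP0, RpS13, RpS16, RpS19a, RpS20 and RpS28a.

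RpS28a had the strongest rat peak of any RP gene. It encodes a small-subunit protein, and the TSSs of Axn and Mgat2 lie within 500 bp of its own. The rat peak (chr3R:30021916-30023145) had a fold enrichment of 5.97, above 93.3% of the rat list, and a −log10 q of 11.3. The rabbit peak had a fold enrichment of 5.01, above 84.9% of its list. Both peaks covered the TSSs of all 3 genes, and their centres were 7.5 bp apart.

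RpS20, a protein of the small-subunit head, had the strongest rabbit peak. Its rabbit peak (chr3R:20821810-20822220) had a fold enrichment of 7.11, above 97.4% of the rabbit list, with a −log10 q of 10.4, and its rat peak one of 5.03, above 85% of the rat list. The rabbit peak lay wholly inside the rat peak, and both spanned the promoter sequence shown above and the TSS of the neighbouring CG17271. No second-round peak lay at RpS20 or RpS28a.

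RpS13, which binds the central domain of the small-subunit RNA, and RpL6 of the large subunit stood at different ranks in the lists, whose depths are unknown. RpS13 had a fold enrichment of 3.55 with the rat antibody (above 41.4% of the list) and 5.33 with the rabbit antibody (above 88.5%). RpL6 had 3.32 with the rat antibody (above 24.8%) and 5.06 with the rabbit antibody (above 85.7%). At RpL6 no other protein-coding TSS lay within 500 bp, and the peak centres were 4.5 bp from the TSS with the rat antibody and 12 bp with the rabbit antibody. The DRE of RpS13 and Motif 1 of RpL6 in the sequences above lay inside the peaks of both antibodies.

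RpL41, the smallest ribosomal protein, had a fold enrichment of 4.22 with the rat antibody and 5.24 with the rabbit antibody over a promoter shared with NaCP60E. RpL24-like had 4.08 with each antibody, with both peak centres nearest the TSS of CG5276. Its yeast counterpart acts in the assembly of the large subunit.

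At 3 further genes the peaks reached into the transcribed region with the rat antibody. RpL3, a core protein near the peptidyl transferase centre, had a rat peak of fold enrichment 4.17 (chr3R:11221771-11222560) centred 271.5 bp downstream of the TSS and a rabbit peak of 3.72 (chr3R:11221438-11221876) centred at −237 bp, upstream of the TSS and nearest CG6693. RpL13A, which in mammals also silences the translation of inflammatory messages, had a rat peak of 3.98 centred 262.5 bp downstream of its TSS and a rabbit peak of 3.40 whose centre was 626 bp from that of the rat peak and nearest Dph4. RpS16, whose tail contacts the tRNA in the P site, had 3.42 with the rat antibody and 3.34 with the rabbit antibody. Its peaks were centred 391 and 90 bp downstream of the more downstream of its 2 annotated TSSs. Neither peak covered the upstream TSS, that of the canonical transcript. The rabbit peak overlapped the rat peak over 13.4% of the width of the rat peak at RpL3 and over 23.5% at RpL13A and at RpS16. At RpS16 the narrower rabbit peak lay wholly inside the rat peak, whereas at RpL3 and RpL13A 24.1% and 40.2% of the rabbit peak overlapped.

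RpLP0, which anchors the stalk that recruits elongation factors, had a fold enrichment of 3.92 with the rat antibody and 3.68 with the rabbit antibody. The stalk proteins themselves differed from it. RpLP1 had a rabbit peak alone, of 3.17, above 2.22% of the rabbit list and nearest the TSS of CG13690. RpLP2 had no peak, and its nearest peaks lay 2124 bp away with the rat antibody and 2272 bp away with the rabbit antibody.

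Among all RP genes with a peak, strength was close to that of other genes. The median fold enrichment was 3.95 with the rat antibody, against 3.84 for all protein-coding genes with a rat peak. It was 3.82 with the rabbit antibody, against 3.89 for all protein-coding genes with a rabbit peak. RP genes with a rat peak had that peak over a TSS in 14 of 16 cases (87.5%), against 64.1% of all protein-coding genes, and with the rabbit antibody in 21 of 33 (63.6%), against 65.6%. Peaks of the rat antibody at RP genes had a median centre of 23.25 bp from the TSS, on the downstream side, with quartiles of −91.375 and 153.75 bp. For all protein-coding genes the median was −60 bp, on the upstream side, with quartiles of −260.5 and 155.5 bp. The centre lay upstream at 7 of the 16 RP genes (43.8%), against 56.3%, so the 2 spreads overlapped widely. Peaks of the rabbit antibody had a median centre of −157 bp (quartiles −329.5 and 33.5 bp), against −63.75 bp (quartiles −247 and 121.5 bp) for all protein-coding genes.

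**Figure D3:**
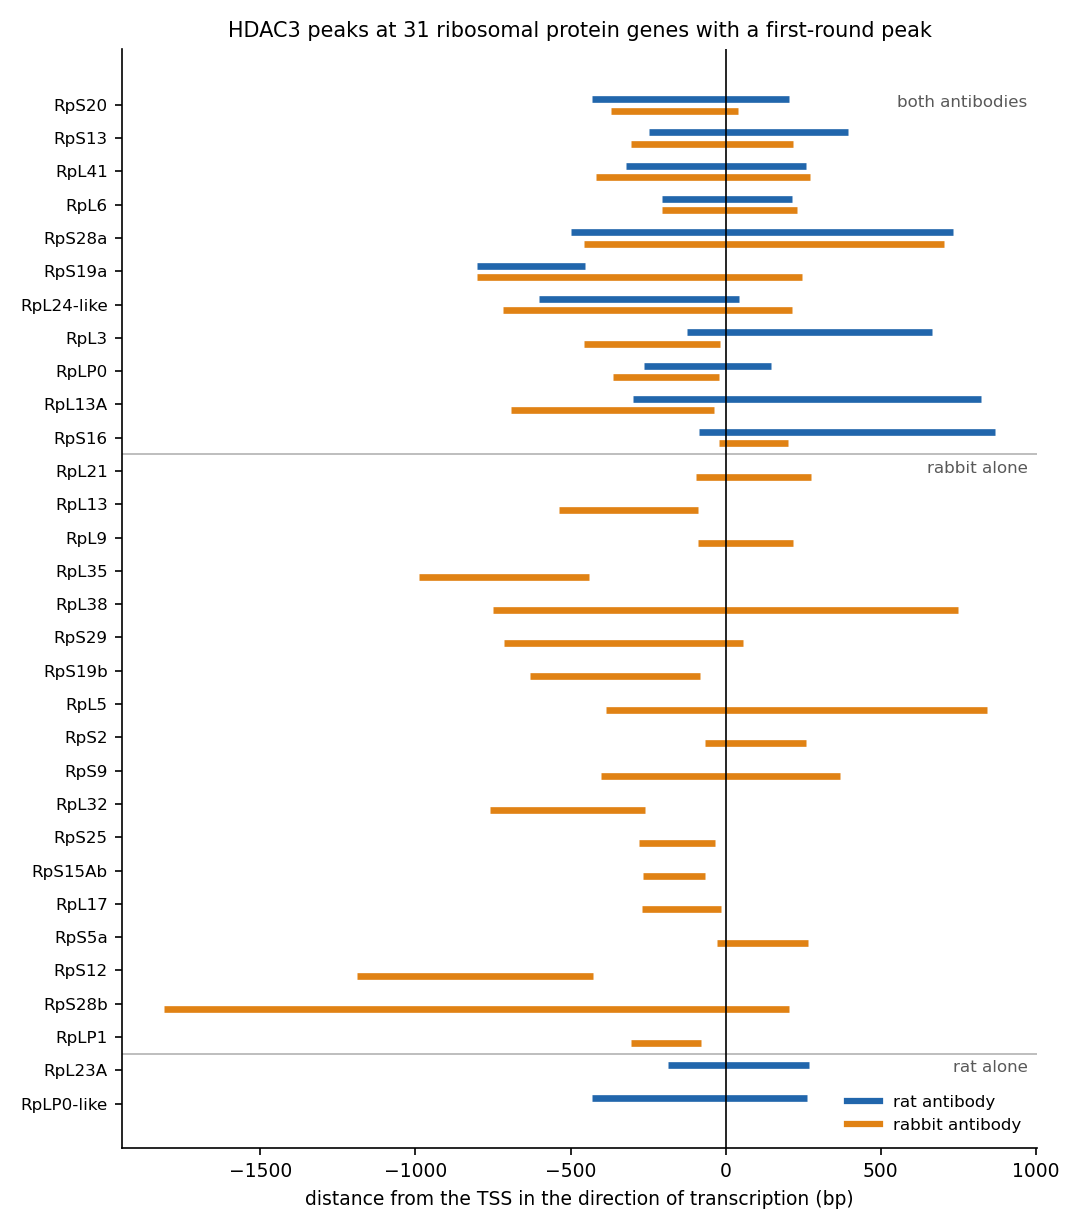
Extent of the HDAC3 peaks around the TSS (x axis, bp, in the direction of transcription) at 31 of the 35 RP genes with a first-round peak (y axis), with rat peaks in blue and rabbit peaks in orange, drawn from the TSS nearest the rat peak where there is one and ordered by rabbit fold enrichment within each group. Rat peaks cover the TSS at 12 of the 13 genes drawn with one, whereas many rabbit peaks of the group found by the rabbit antibody alone lie wholly upstream.

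Among the 19 RP genes found by the rabbit antibody and not by the rat antibody were RpL5, RpL9, RpL13, RpL17, RpL21, RpL32, RpL35, RpL38, RpLP1, RpS2, RpS5a, RpS9, RpS12, RpS15Ab, RpS19b, RpS25, RpS28b and RpS29. Their rabbit peaks had a median fold enrichment of 3.72, against 3.99 at the 14 RP genes found by both antibodies, and for all protein-coding genes the same 2 classes had 3.63 and 4.06. Fewer of these peaks covered a TSS, 9 of 19 (47.4%) against 12 of 14 (85.7%) at RP genes of both antibodies, and for all protein-coding genes the same 2 classes had 56.4% and 69.3%. The nearest rat peak was between 599 and 96758 bp away, with a median of 4535 bp, and lay within 1000 bp at 2 of the 19.

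RpL21, singled out after its values were seen, had the strongest of these peaks. The rabbit peak (chr2L:22247556-22247928) had a fold enrichment of 5.06, above 85.6% of the list, covered the TSS with its TCT initiator and had no neighbouring TSS. RpS2, a protein of the mRNA entry channel, had a rabbit peak of 3.72 over its own TSS, with no neighbour either. RpL32, widely used as a reference gene in fly expression studies, had a rabbit peak of 3.62 that ended 259 bp from its TSS and was nearest that of CG7943. Its nearest rat peak was 1680 bp away. At RpL13, also chosen after its values were seen, the rabbit peak of 4.24 ended 88 bp from its TSS and 4 bp from the divergent TSS of Dref, the gene of the factor that binds the DRE.

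Another gene often lay next to the peaks. At 37 RP genes (40.7%) another protein-coding TSS lay within 500 bp, against 30.8% of all protein-coding genes. At 36 RP genes (39.6%) that neighbour was divergently transcribed, against 27.3% of all protein-coding genes. Most neighbours at this distance were divergent in general, at 3818 of the 4314 protein-coding genes with a neighbour. Of these 37 RP genes, 13 (35.1%) had a rat peak, against 38.6% of all protein-coding genes with a neighbour. Of the 54 RP genes without such a neighbour, 3 (5.56%) had a rat peak, against 18.7% of all protein-coding genes without one. RpL6 and RpL23A were among the 3. With the rabbit antibody, 19 of the 37 RP genes with a neighbour (51.4%) had a peak, against 40.5% of all protein-coding genes with a neighbour, and 14 of the 54 without one (25.9%), against 15.1%. Among these 14, the peaks at RpL35, RpS12 and RpS28b were centred nearest the TSS of another gene that lay beyond the 500 bp.

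**Figure D4:**
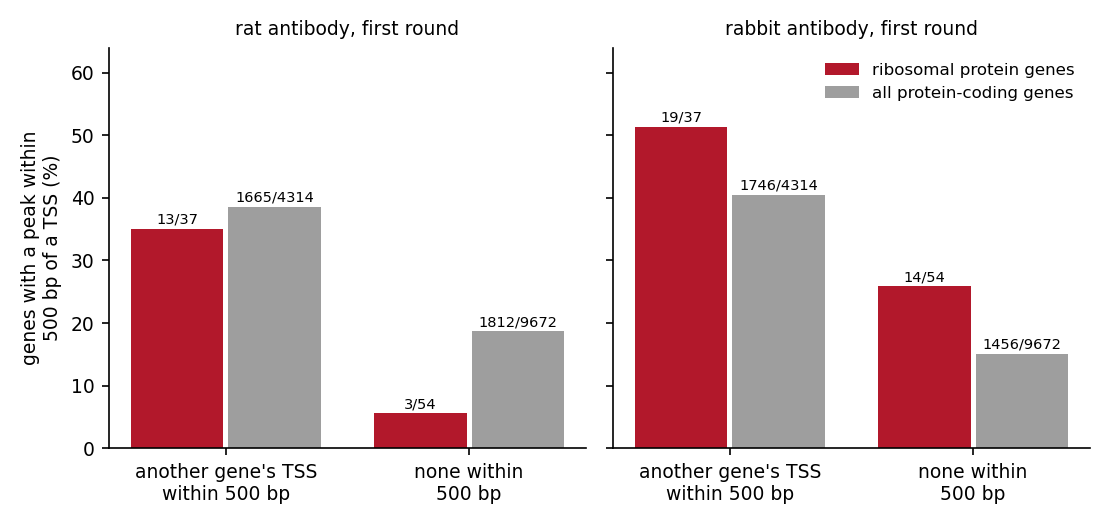
Share of genes with a peak (y axis, %) among genes with another protein-coding TSS within 500 bp and among genes with none (x axis), for RP genes (red) and all protein-coding genes (grey), with the rat antibody (left) and the rabbit antibody (right). Numbers above bars are genes with a peak out of all genes of that class. Without a neighbour, 3 of 54 RP genes had a rat peak and 14 of 54 a rabbit peak.

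When a peak was given only to the gene whose TSS was nearest its centre, 12 RP genes (13.2%) kept a rat peak, against 18.9% of all protein-coding genes, and 17 (18.7%) a rabbit peak, against 16.2%. The 16 RP genes that lost the rabbit peak in this way had its centre nearest the TSS of another gene, among them Rok at RpS19a and Rab18 at RpL35. The gap between RP genes and all protein-coding genes in the rabbit list was smaller by this count than by the 500 bp window. A peak that spans a shared promoter cannot be assigned to either gene from these lists.

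RP genes without a first- or second-round peak included some of the best known ones. RpS6, the target of S6 kinase, holds both a DRE and a TCT initiator in the sequence shown above, and its nearest peaks were 7062 bp away with the rat antibody and 7247 bp with the rabbit antibody. RpL11, which with RpL5 and the small 5S RNA forms a particle of the large subunit, had its nearest peaks 3373 bp away with the rat antibody and 3439 bp with the rabbit antibody. RpL10, among the last proteins to join the large subunit in yeast, had them 10112 and 18213 bp away in the same order.

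RpS3, of the mRNA entry channel, had its nearest rat peak 1057 bp away and its nearest rabbit peak 14648 bp away. RpS26, of the mRNA exit channel, had its nearest rat peak 32751 bp away. RpL22 and RpL23 of the large subunit had their nearest rat peaks 5589 and 5902 bp away. RpL40 and RpS27A, both made as fusions with ubiquitin, missed the 500 bp by little with the rat antibody, whose nearest peaks were 655 bp from RpL40 and 758 bp from RpS27A. The rabbit antibody had its nearest peak 718 bp from RpL40 and 5570 bp from RpS27A. Over the 56 RP genes without a w1118 peak, the nearest rat peak was a median of 3877.5 bp away and the nearest rabbit peak 5308 bp.

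Wherever a pair of paralogs had a peak, its members differed in the lists that held it. No share for other pairs of genes was computed. Most genes had no peak (68.3% of all protein-coding genes in the w1118 lists), so no trait of paralogs can be read from this. Of 12 pairs of related RP genes, 6 had no peak in any list at either member (RpL7 and RpL7-like, RpL10Aa and RpL10Ab, RpL22 and RpL22-like, RpL34a and RpL34b, RpS10a and RpS10b, RpS14a and RpS14b). The treatment of reads that map to more than 1 place is not given in the sources used here, so values of near-identical copies are uncertain. RpS19a, needed for the maturation of the small subunit, had a rat peak of 3.14 and a rabbit peak of 4.40, both centred nearest Rok. RpS19b, a copy expressed in the germline, had a rabbit peak alone, of 3.87, centred nearest CG5854. RpS28a had the peaks of both antibodies given above, and RpS28b a rabbit peak alone, of 3.25, which was 2016 bp wide and centred nearest l(1)G0320.

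RpL24 had no peak and RpL24-like had 1 with each antibody. RpLP0 had both, and RpLP0-like, whose yeast counterpart acts in ribosome assembly, had a rat peak alone, of 2.99, above 5.26% of the list and shared with 14-3-3zeta. RpS5a had a rabbit peak alone and RpS5b, a copy enriched in the ovary, had none. RpS15Ab had a rabbit peak alone, centred nearest Lsm10, and RpS15Aa had none. RpS14a and RpS14b lie 220 bp apart, and neither had a peak.

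The TCT initiator, the DRE and Motif 1 were found at a larger share of RP promoters than of all promoters, and RP genes with a peak were spread over promoters with and without them. Motifs were searched from 250 bases before to 50 bases after the TSS of the canonical transcript. The TCT initiator was taken as CTTT with its C within 5 bp of the TSS and a C or T on either side, on the coding strand, the DRE (TATCGATA), Motif 1 (GGTCACAC), the Zelda motif (CAGGTAG) and the GAGA motif (GAGAGAG) on both strands, and TATAAA on the coding strand. None of these strings contains another, and the DRE reads the same on both strands. The TCT initiator was found at 37 RP promoters (40.7%), against 1.45% of the 13979 protein-coding promoters with a full window, and at 54 RP genes (59.3%), against 2.12%, when every annotated TSS was searched. The DRE was found at 28 RP promoters (30.8%), against 8.93%, Motif 1 at 13 (14.3%), against 7.52%, and TATAAA at 29 (31.9%), against 32.2%. No RP promoter held the GAGA motif, bound by the GAGA factor, or the Zelda motif, bound by the activator of the zygotic genome, which were found at 6.18% and 1.72% of all protein-coding promoters. A match is a string of letters and not a measured binding site.

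**Figure D5:**
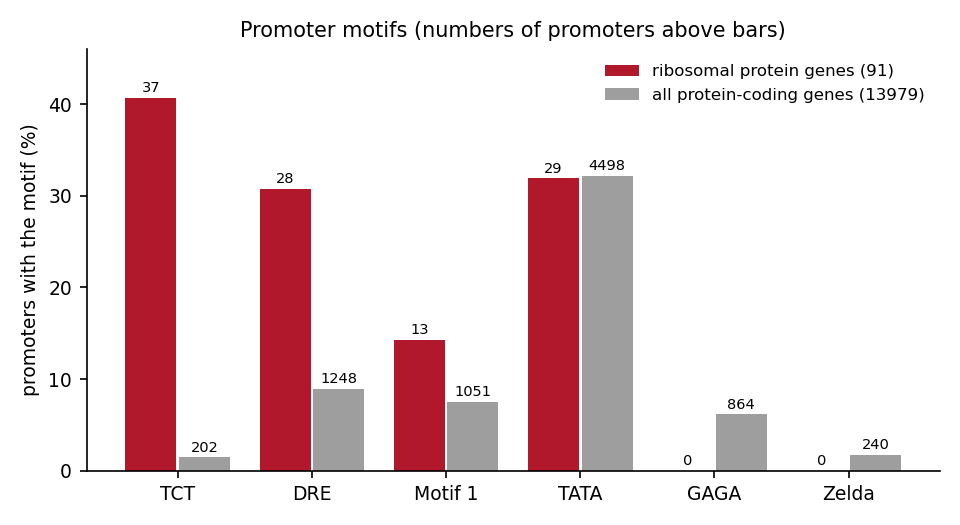
Share of promoters (y axis, %) with each motif (x axis) among the 91 RP genes (red) and all 13979 protein-coding promoters (grey), with the number of promoters above each bar. The TCT initiator was found at 37 RP promoters, and the GAGA and Zelda motifs at none.

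Among RP genes a rabbit peak was present at 13 of 38 promoters with a DRE or Motif 1 (34.2%) and at 20 of 53 without (37.7%). Among all protein-coding genes it was present at 41.4% of promoters with a DRE or Motif 1 and at 19.5% of those without. With the rat antibody the shares were 15.8% with and 18.9% without for RP genes, and 35.6% with and 22.9% without for all protein-coding genes. The 2 motifs differed here. For the DRE, the rat shares at RP genes were 21.4% with and 15.9% without, against 31.5% and 24.2% of all protein-coding genes. For Motif 1 they were 7.69% with (1 of 13) and 19.2% without, against 41% and 23.6%. The rabbit shares at RP genes were 35.7% with and 36.5% without a DRE, and 30.8% with and 37.2% without Motif 1. RP genes with a TCT initiator had a rat peak in 16.2% of cases and those without in 18.5%, and a rabbit peak in 35.1% with and 37% without. Over all protein-coding genes the rat shares were 24.8% with and 24.9% without, and the rabbit shares 25.2% with and 22.9% without. The 37 RP promoters are part of the 202 promoters with a TCT initiator. Of the 51 of these 202 with a rabbit peak, 13 were RP promoters, which raised the 25.2%. The sequences shown above give both kinds, since RpS13 with a DRE had a peak of each antibody and RpS6 with a DRE had none.

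Motifs were also searched inside the strongest peak of each gene, with a peak shared by several genes counted once. The GAGA motif was found in 1 of 16 rat peaks at RP genes (6.25%), against 28.3% of such rat peaks of all protein-coding genes. It was found in 2 of 33 rabbit peaks (6.06%), against 21.8%. Motif 1 was found in 9 rabbit peaks at RP genes (27.3%), against 15%, and in 4 rat peaks (25%), against 11.4%. The DRE was found in 7 rabbit peaks (21.2%), against 11.1%, and in 3 rat peaks (18.8%), against 7.27%. The Zelda motif, found at no RP promoter, was found in 3 rat peaks at RP genes (18.8%), against 10.2%, and in 2 rabbit peaks (6.06%), against 6.71%. TATAAA was found in 3 rat peaks (18.8%), against 23.2%, and in 11 rabbit peaks (33.3%), against 23.8%. Peak widths differ, with a median at RP genes of 643.5 bp with the rat antibody and 549 bp with the rabbit antibody, against 537 and 498.5 bp for all protein-coding genes, and a wider peak has more room for a match.

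By chromosome arm, a rabbit peak was found at 7 of 19 RP genes on 2L, 6 of 21 on 2R, 4 of 14 on 3L, 11 of 23 on 3R and 5 of 14 on X, and a rat peak at 1, 5, 2, 7 and 1 of them. Over all protein-coding genes the rabbit share was between 21.4% on 2L and 26% on X, and the rat share between 24.1% on X and 25.2% on 2R. RP genes were short, with a median length of 1312 bp, against 2162.5 bp for all protein-coding genes, and more of them had several annotated TSSs, 44 (48.4%) against 26.5%. The 44 RP genes with 2 or more TSSs had a rat peak in 11.4% of cases, against 41.9% of all protein-coding genes with 2 or more, and the 47 RP genes with 1 TSS in 23.4%, against 18.7%. With the rabbit antibody the shares were 36.4%, against 37.3%, for genes with 2 or more TSSs and 36.2%, against 17.7%, for genes with 1 TSS. A total of 27 RP genes (29.7%) hosted a snoRNA, against 0.601% of all protein-coding genes. Of these hosts, 7 RP genes (25.9%) had a rat peak, against 50% of all 84 snoRNA hosts, and 12 (44.4%) a rabbit peak, against 56%. The 27 RP hosts are part of the 84, so the shares of the other hosts were higher than those of all 84.

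In the second round, HDAC3 shRNA embryos had no peak at any RP gene, against 0.114% of all protein-coding genes, and w1118 embryos had a peak at 2 (2.2%), RpS9 among them, against 5.09% of all protein-coding genes. The nearest peak of the HDAC3 shRNA list to any RP gene was 3145 bp away. The w1118 list of the same round held so few RP genes that a loss could hardly be seen, and of the 712 protein-coding genes in that w1118 list 14 (1.97%) were also in the HDAC3 shRNA list. The HDAC3 shRNA list has 18 peaks on the chromosome arms and chromosome 4, and a lower depth cannot be told apart from a lower occupancy.

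RpS9, which helps to keep decoding accurate, had a fold enrichment of 3.42 in the second round (above 19.1% of that list, −log10 q 1.64) and 3.66 with the rabbit antibody (above 37.1% of its list), over its own TSS in both lists, and no rat peak in the first round. Both second-round peaks at RP genes held Motif 1, against 7.27% of the strongest second-round w1118 peaks of all protein-coding genes. Of the 16 RP genes with a first-round rat peak, 6.25% had a second-round w1118 peak, against 19.2% of all protein-coding genes.

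Other gene groups of protein synthesis had larger shares with a first-round rat peak than RP genes. The lists were genes of the mitochondrial ribosome (73), translation factors (52), ribosome biogenesis and rRNA transcription (32), TOR signalling and growth control (9) and, as a further set of abundant complexes, the proteasome (48). A rat peak was found at 17.6% of RP genes, against 31.5% of mitochondrial ribosome genes, 40.4% of translation factor genes, 46.9% of biogenesis genes, 55.6% of TOR genes and 25% of proteasome genes. A rabbit peak was found at 36.3% of RP genes, against 41.1%, 34.6%, 46.9%, 55.6% and 22.9% in the same order. A rabbit peak without a rat peak was found at 20.9% of RP genes, against 16.4%, 5.77%, 12.5%, 11.1% and 8.33%. RP genes had the lowest share of these 6 groups with the rat antibody and the highest share with a rabbit peak alone, as counts in 1 library per antibody.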

How the data were processed

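Reads were trimmed by the authors (Trim Galore!), aligned to the dm6 assembly (Bowtie2) and used for peak calling per library (MACS2). Versions, calling options and any control library are not given in the sources used here. A list deposited by the authors gives every peak a fold enrichment, which is a ratio, and its p-value and q-value on the −log10 scale. Its score column, also deposited, was left unused. No peak with a −log10 q under 1.60 is listed, so weaker peaks were already removed.

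Gene models came from Ensembl release 115 and sequences from RefSeq, both on assembly Release 6, which has the coordinates of dm6. A gene had a peak when a peak edge lay within 500 bp of any of its annotated TSSs, and the peak of highest fold enrichment stood for it. Percentiles are ranks within a list. The lists give no summit, so the centre of the peak was used. For a gene with several TSSs, the distance was taken from the TSS nearest that centre, and more RP genes than other genes have several. Promoters ran from 250 bases before to 50 bases after the TSS. Python 3.11.15, numpy 2.4.6, pandas 2.3.3 and matplotlib 3.10.9 were used. On simulated data, the join of peaks and TSSs was identical to a brute-force search in 40 of 40 runs.

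With 1 library per combination of round, genotype and antibody, no test was made, and RP genes were set beside all protein-coding genes. The members and lists were chosen with earlier results of these data known. Of 50 symbols listed for ribosome biogenesis and TOR signalling, 41 were found. Genes given with values were the 12 of highest rat fold enrichment among those with a peak of both antibodies, those with a second-round peak, paralog pairs in which 1 member had both, and 14 well-known RP genes. Protein sequences were not analysed here, and some genes that the rule selects are counted but not reported by name here. The alternatives covered the distance, stricter and equal-sized lists, the nearest TSS, the required overlap, the choice of genes and the second-round list in place of the first-round rat list.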

Additional observations from a re-analysis of the deposited data

How the results depend on the processing

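The counts of RP genes were 0 for HDAC3 shRNA and 2 for w1118 in the second round, and 16 for the rat antibody, 33 for the rabbit antibody and 14 for both in the first. Peaks that cover the TSS gave 21 for rabbit and 1 for the second round. Within 1000 bp the counts were 28 for rat and 4 for the second round, and within 3000 bp 49 for rat, 53 for rabbit, 38 for both and 8 for the second round. A peak counted only for its nearest TSS left 1 in the second round. A −log10 q of at least 3 left 9 for rat, 12 for rabbit, 5 for both and 0 for the second round. Lists cut to 1142 peaks left 3 for rat (3.3% against 5.13% of all protein-coding genes), 7 for rabbit (7.69% against 7.21%) and 2 for both (2.2% against 3.07%). Without the first-round rat list, the second-round list gave 2 for rat and 2 for both. With symbols ending in -like left out, 86 RP genes remained, with counts of 14 for rat (16.3%), 32 for rabbit (37.2%) and 13 for both (15.1%). Chosen after seeing the data, genes without a neighbouring TSS gave 3 for rat and 14 for rabbit, the rat list cut to 3645 peaks by fold enrichment or by −log10 q gave 10, and the TSS nearest the peak centre gave 17 for rabbit. The share of RP genes was above that of all protein-coding genes in 13 of 13 alternatives for rabbit, narrowly with the lists cut to 1142 peaks, and below it in 14 of 16 for rat and 10 of 14 for both. The counts for HDAC3 shRNA and second-round w1118 were below it in 10 of 10 each, which for HDAC3 shRNA says nothing of stability, since a list with 16 protein-coding genes nearly fixes a count of 0. The 2 exceptions for rat were the distances of 1000 and 3000 bp. The causes were not tested. No paired analysis was possible because no result comes from a test and each combination is 1 library. Depth is unknown, so a gene without a peak may hold HDAC3 below what its list could detect.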

Other observations

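Of the 73 genes of the mitochondrial ribosome, mRpS23 was the one with a peak in all 4 lists. Its fold enrichment was 9.90 in HDAC3 shRNA embryos and 4.61 in second-round w1118 embryos, and in the first round it was 6.89 with the rat antibody and 5.33 with the rabbit antibody. The second-round w1118 list also held mRpL4, mRpL53, mRpS14 and mRpS16, so it had 5 of 73 mitochondrial ribosome genes (6.85%). This share was near the 5.09% of all protein-coding genes in that list. The same list had 2 of 91 RP genes (2.2%) and 0 of 48 proteasome genes. Fold enrichment was not compared between lists, whose depth is unknown.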
